A study of Homo sapiens with 18 samples.

Results

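The 46 genes described here encode the machinery by which a secretory cell brings proteins into the endoplasmic reticulum (ER), folds them, and removes those that fail to fold. They were taken by symbol from a list ordered by role. No cut-off on a measured value was applied, but earlier results of these data were known when the genes were chosen. The list holds 12 chaperones and co-chaperones, 9 disulfide and prolyl isomerases, 10 genes of ER-associated degradation, 4 stress sensors, and 11 subunits of the translocon, its associated proteins and signal peptidase. Each of the 46 symbols was present once in each of the 4 deposited tables, which together hold 59421 gene symbols.

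The study asked what the RNA-binding protein RBM39, a factor in pre-mRNA splicing, does in multiple myeloma, a cancer of plasma cells. It used H929 and MM1S, established human myeloma cell lines labelled as plasma cells, so every value below comes from these lines. In H929, 3 libraries labelled shRBM39 (short hairpin RNA against RBM39) stood against 3 libraries labelled scramble (a control hairpin). In MM1S, 2 shRBM39 libraries stood against 2 scramble libraries, and 3 libraries of cells given indisulam stood against 3 of cells given DMSO, the solvent. Indisulam is a sulfonamide that glues RBM39 to DCAF15, the substrate receptor of a ubiquitin ligase, after which the protein is degraded. RNA immunoprecipitation (RIP) from MM1S gave 1 library pulled down with anti-RBM39 and another, also 1, with IgG as the control. The labels give no dose, time or hairpin sequence, and they do not say that replicates were separate cultures. They also leave unsaid whether the 2 MM1S shRBM39 libraries share a hairpin, and with different hairpins the errors of that comparison would include the difference between them. A p-value below therefore reflects the spread among these libraries alone, and that spread may be partly technical.

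A plasma cell secretes antibody in bulk and depends on this machinery more than most cells do. Nascent secretory proteins enter through the SEC61 channel, lose their signal peptide to signal peptidase, and are folded by BiP (HSPA5) and other chaperones while disulfide isomerases form their cysteine bridges. Proteins that fail are drawn back to the cytosol by the SYVN1-SEL1L complex and degraded by the proteasome. When unfolded protein accumulates, the sensors IRE1 (ERN1), PERK (EIF2AK3) and ATF6 start the unfolded protein response. IRE1 splices the mRNA of XBP1, a transcription factor that plasma cells need, and ATF6 and XBP1 act on chaperone and degradation genes through short promoter sequences, the ER stress elements.

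Those elements are shown first because they are the feature that links many of these genes. Promoter windows of 250 bases before to 50 bases after the start site, from RefSeq on GRCh38.p14, were found for 42 of the 46 genes (PDIA3, DERL1, DERL3 and SPCS1 had no entry). The ER stress element ERSE (CCAAT, 9 bases of any kind, CCACG, on either strand) occurred in 6 of the 42 windows, those of HSPA5, HSP90B1, CALR, CANX, CRELD2 and PDIA6. That is 14.3% of the members' windows, against 0.0916% of the 27305 genes with a window. ERSE-II (ATTGG, 1 base, CCACG, on either strand) occurred in SDF2L1, HYOU1 and HERPUD1, 7.14% of the 42, against 0.0696% of all genes. The shorter XBP1 core, GACGTGG on either strand, whose end can overlap the CGTGG of an ERSE or ERSE-II match, occurred in 11 of the 42 (26.2%), against 3.82% of all genes. A match describes letters in these windows and was not measured as binding.

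The windows of HSPA5, CRELD2, HERPUD1 and SDF2L1 are given in full, 5′ to 3′ in the direction of the gene, with the element in capitals. HSPA5 and CRELD2 stand for ERSE genes with high RBM39 pull-down, HERPUD1 for an ERSE-II gene called in all 3 expression comparisons, and SDF2L1 for an ERSE-II read on the other strand. HSPA5 lies on the minus strand at chr9:125241294-125241593, and the others lie on the plus strand, CRELD2 at chr22:49918384-49918683, HERPUD1 at chr16:56931892-56932191 and SDF2L1 at chr22:21642052-21642351.
HSPA5: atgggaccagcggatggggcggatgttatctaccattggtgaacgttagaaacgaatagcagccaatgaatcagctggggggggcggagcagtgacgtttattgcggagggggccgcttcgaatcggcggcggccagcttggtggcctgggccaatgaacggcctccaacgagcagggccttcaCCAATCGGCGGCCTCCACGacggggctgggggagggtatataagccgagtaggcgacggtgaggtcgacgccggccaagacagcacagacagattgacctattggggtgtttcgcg
CRELD2: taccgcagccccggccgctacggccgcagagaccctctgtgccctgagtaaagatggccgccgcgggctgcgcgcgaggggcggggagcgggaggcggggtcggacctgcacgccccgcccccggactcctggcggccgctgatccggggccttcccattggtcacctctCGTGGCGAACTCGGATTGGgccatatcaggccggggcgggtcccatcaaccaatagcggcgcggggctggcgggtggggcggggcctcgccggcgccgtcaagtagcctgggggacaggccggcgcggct
HERPUD1: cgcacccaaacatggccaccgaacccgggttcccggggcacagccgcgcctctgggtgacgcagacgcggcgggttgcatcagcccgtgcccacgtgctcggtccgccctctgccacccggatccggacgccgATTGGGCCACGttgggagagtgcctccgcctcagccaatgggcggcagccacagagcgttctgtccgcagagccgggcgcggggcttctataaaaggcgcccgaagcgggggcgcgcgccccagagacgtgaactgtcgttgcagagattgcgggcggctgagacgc
SDF2L1: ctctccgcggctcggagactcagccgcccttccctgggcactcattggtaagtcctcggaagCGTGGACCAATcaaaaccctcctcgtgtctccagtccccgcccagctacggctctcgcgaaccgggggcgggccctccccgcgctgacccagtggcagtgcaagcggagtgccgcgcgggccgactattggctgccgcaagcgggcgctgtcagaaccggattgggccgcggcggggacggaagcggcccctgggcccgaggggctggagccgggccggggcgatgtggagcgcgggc

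For the other 5 genes with an element, only the element and 5 bases on each side are given, in the direction of the gene. HSP90B1 and HYOU1 hold 2 elements each. In HSP90B1 they lie on opposite strands, and in HYOU1 both read CGTGG before CCAAT.
HSP90B1, far element: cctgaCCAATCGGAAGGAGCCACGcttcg
HSP90B1, near element: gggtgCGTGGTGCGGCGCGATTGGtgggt
CALR: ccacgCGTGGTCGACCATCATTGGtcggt
CANX: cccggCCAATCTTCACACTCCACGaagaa
PDIA6: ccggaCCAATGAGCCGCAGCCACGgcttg
HYOU1, far element: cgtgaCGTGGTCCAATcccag
HYOU1, near element: tgggaCGTGGTCCAATgagta

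The targeted transcript was checked before any direction was read. In MM1S, RBM39 fell with shRBM39, at 64.8 and 52.2 TPM against 176.3 and 204.6 TPM with scramble (log2 difference -1.69, SE 0.161, limma adjusted p = 0.0121). In H929 it went against the labels, at 38.3, 38.6 and 35.6 FPKM in the libraries labelled shRBM39 and 4.56, 4.43 and 4.51 FPKM in those labelled scramble. H929 results are therefore given by label and not read as effects of knockdown. Whether the H929 labels were exchanged was not tested, and if they were, every H929 direction below would turn round. With indisulam, which acts on the protein, RBM39 transcript was 226.5, 217.4 and 149.4 TPM against 188.6, 178.3 and 196.0 TPM in DMSO (log2 difference 0.05, limma adjusted p = 0.828). It was not called under median scaling either (0.06, limma adjusted p = 0.653). Under quantile normalization it was called higher (0.40, limma adjusted p = 0.0387), as it was without indisulam replicate 3 (0.24, limma adjusted p = 0.00818). The plasma cell label was borne by the transcripts of IRF4, PRDM1, SDC1 and JCHAIN, and of 10 plasma cell markers only CD27 stayed under 1 unit in every library. Indisulam replicate 3 stood apart, with a mean absolute log2 distance of 0.550 to the other 2 indisulam libraries, which were at 0.380 and 0.368, while DMSO libraries were at 0.170 to 0.177 from each other. Relative to scramble replicate 1, H929 sequencing depth ranged between 0.975 and 1.15, and depth is unknown for the other tables.

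Levels of the 46 genes spanned a wide range in both lines. Levels are set side by side only within a table, since each table was normalized on its own. TXNDC5, a disulfide isomerase of secretory cells, had the highest mean of the 46 in all 6 groups. It averaged 4315 FPKM in H929 libraries labelled shRBM39 and 1828 FPKM in those labelled scramble. Its MM1S means were 1491 TPM with shRBM39 against 1899 TPM with scramble, and 4354 TPM with indisulam against 2453 TPM in DMSO. With shRBM39 in MM1S its range, 1254 to 1727 TPM, overlapped those of HSP90B1 (1351 to 1508) and MZB1 (1079 to 1669). In DMSO the next levels were those of MZB1, a co-chaperone of immunoglobulin assembly, at 1866 TPM (range 1802 to 1930) and PPIB, a prolyl isomerase, at 1248 TPM (1216 to 1286). SEC11C, a catalytic subunit of signal peptidase, followed at 1121 TPM (1062 to 1181), and these 4 ranges did not overlap. HSP90B1 came next at 866.3 TPM (861.2 to 876.1). P4HB, SEC61G and SSR2 followed at 820.1 to 844.5 TPM, and each overlapped its neighbour. At the other end, EDEM2, which trims mannose from misfolded glycoproteins, was at 17.5 to 20.8 TPM and the sensor ATF6 at 10.5 to 12.1 TPM. Summed, the 46 genes made up 3.29% to 3.34% of all FPKM in H929 libraries labelled shRBM39 and 2.47% to 2.53% in those labelled scramble.

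In H929, 29 of the 45 genes tested were higher with the shRBM39 label, 8 were lower and 8 were not called (limma on log2 of FPKM + 1, Benjamini-Hochberg adjusted p below 0.05). Fewer cells with a transcript and less transcript per cell cannot be told apart in bulk RNA, here or below. Of all 10360 genes tested, 72.2% were called, 24.1% higher and 48.1% lower, and the median gene was at -0.134 on the log2 scale against 0.23 for these genes. Because scaling moved the median of all genes by more than 0.1, most H929 differences named are also given relative to that median. With columns scaled to a common median, 35 were higher and 5 lower (all genes 38% and 32%), and with quantile normalization 26 and 10 (34.4% and 34.9%). SSR2 turned from higher to lower under quantile normalization (log2 -0.28, adjusted p = 3.22e-06), as did HSP90B1 (-0.10, adjusted p = 0.0216), and PPIB turned to -0.03 (adjusted p = 0.446). DERL3, TXNDC5, MZB1 and EIF2AK3 were called with a log2 difference of at least 1 in size, beside 4.75% of all genes. FKBP2 was not tested, since it was at 0 to 0.0876 FPKM in all 6 libraries.

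In the entry machinery, 10 of the 11 listed translocon and signal peptidase genes were higher with the shRBM39 label and 0 lower, beside 24.1% and 48.1% of all genes. Their median log2 difference was 0.61, and quantile normalization gave 8 higher and 2 lower. SEC11C was at 487.6, 431.2 and 404.2 FPKM in the libraries labelled shRBM39 and at 236.4, 217.1 and 230.9 FPKM in those labelled scramble, a log2 difference of 0.94 (SE 0.0605, adjusted p = 2.14e-08), or 1.08 relative to all genes. SPCS3, another signal peptidase subunit, had 54.5, 54.7 and 50.7 FPKM against 27.6, 27.5 and 28.4 FPKM, a difference of 0.91 (1.05 relative). SSR3, a subunit of the translocon-associated TRAP complex, had 94.8, 85.7 and 83.6 FPKM against 56.7, 50.1 and 52.7 FPKM, a difference of 0.72 (0.85 relative). The groups did not overlap for any of these 3. SEC61A1, the channel subunit itself, had 261.1, 271.8 and 261.0 FPKM against 279.8, 276.7 and 266.7 FPKM and was not called (adjusted p = 0.245). It was called higher under median scaling (0.11, adjusted p = 0.028) and lower under quantile normalization (-0.22, adjusted p = 0.000203).

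Among isomerases, 7 of 8 tested were higher and 1 lower, with a median of 0.43. TXNDC5 was at 4313, 4185 and 4448 FPKM in the libraries labelled shRBM39 against 1824, 1879 and 1781 FPKM in those labelled scramble (log2 1.24, SE 0.0408, adjusted p = 8.29e-11, 1.37 relative). FKBP11, a prolyl isomerase of secretory cells, had 98.5, 87.9 and 84.7 FPKM against 54.8, 49.4 and 56.7 FPKM (0.74, 0.88 relative). P4HB, the classical protein disulfide isomerase, had 1228, 1182 and 1234 FPKM against 798.0, 808.8 and 801.7 FPKM (0.60, 0.73 relative). PDIA3, which acts with calnexin and calreticulin on glycoproteins, was the 1 that fell, to 76.6, 77.4 and 74.9 FPKM against 91.2, 87.8 and 88.5 FPKM (-0.22, adjusted p = 0.000204). Relative to all genes it was at -0.09, and with median scaling it was not called (adjusted p = 0.207). In each of these 4 genes the groups were apart.

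Chaperones were higher in 8 of 12 and lower in 1, with a median of 0.23. MZB1 had 534.1, 507.4 and 504.0 FPKM in the libraries labelled shRBM39 and 236.5, 246.5 and 226.1 FPKM in those labelled scramble (log2 1.12, SE 0.0435, adjusted p = 2.17e-10, 1.26 relative). MANF, a secreted protein that ER stress induces, had 128.2, 132.5 and 124.9 FPKM against 75.8, 70.7 and 70.1 FPKM (0.82, 0.96 relative). CALR, the lectin chaperone calreticulin, had 671.1, 684.4 and 661.6 FPKM against 443.8, 437.2 and 433.8 FPKM (0.62, 0.75 relative). All 3 had every library of one label above every library of the other. The differences of HSPA5 and CRELD2, a disulfide-rich ER protein induced by stress, were smaller. HSPA5 had 237.7, 241.9 and 239.7 FPKM against 201.5, 194.2 and 201.3 FPKM (0.27, adjusted p = 2.39e-05, 0.40 relative). CRELD2 had 36.8, 33.7 and 35.1 FPKM against 30.7, 29.5 and 31.4 FPKM (0.20, adjusted p = 0.00276, 0.33 relative). HYOU1, a nucleotide exchange factor of BiP, fell to 209.7, 225.0 and 211.4 FPKM against 254.0, 251.7 and 241.5 FPKM (-0.21, adjusted p = 0.00053). It was at -0.08 relative to all genes and was not called with median scaling (adjusted p = 0.352).

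Of the degradation genes 3 of 10 were higher, 3 lower and 4 not called, which became 7 higher and 2 lower with median scaling and 4 and 2 with quantile normalization. DERL3, a derlin abundant in secretory cells, had the largest difference of all 45, at 64.9, 57.1 and 57.6 FPKM in the libraries labelled shRBM39 and 17.8, 17.4 and 18.6 FPKM in those labelled scramble (log2 1.68, SE 0.0559, adjusted p = 8.29e-11, 1.82 relative). EDEM1, which delivers misfolded glycoproteins for degradation, had 49.3, 55.8 and 55.8 FPKM against 30.0, 29.3 and 30.2 FPKM (0.82, 0.96 relative). SEL1L, the adaptor of the ubiquitin ligase SYVN1, had 58.3, 66.3 and 65.4 FPKM against 38.8, 39.1 and 38.0 FPKM (0.70, 0.83 relative). SYVN1 itself was not called (adjusted p = 0.448), but was called higher with median scaling (0.13, adjusted p = 0.0198). In the other direction, OS9, a lectin that recognizes degradation substrates, fell to 152.8, 150.5 and 151.4 FPKM against 199.4, 202.2 and 209.0 FPKM (-0.42, adjusted p = 3.66e-07, -0.29 relative). HERPUD1, a stress-induced scaffold of the degradation complex, fell to 53.8, 53.3 and 52.9 FPKM against 65.0, 63.9 and 65.4 FPKM (-0.28, adjusted p = 3.18e-05, -0.14 relative). DERL2 was the weakest of the 3, at 12.7, 11.8 and 13.1 FPKM against 14.0, 13.6 and 14.9 FPKM (-0.16, adjusted p = 0.0248, -0.03 relative), and its sign changed to 0.02 under quantile normalization.

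Of the 4 stress sensors 3 were lower and 1 higher, while most of the other listed roles had more genes higher than lower. Among all genes tested, 48.1% were lower and 24.1% higher. EIF2AK3 had 105.6, 109.0 and 107.1 FPKM in the libraries labelled shRBM39 and 224.3, 217.6 and 210.3 FPKM in those labelled scramble (log2 -1.01, SE 0.0395, adjusted p = 2.29e-10, -0.88 relative). ERN1 had 29.2, 34.0 and 33.6 FPKM against 52.0, 55.0 and 52.0 FPKM (-0.70, SE 0.058, adjusted p = 1.94e-07, -0.57 relative). CREB3L2, an ER-bound transcription factor activated like ATF6, had 25.1, 28.9 and 28.2 FPKM against 43.2, 45.7 and 43.4 FPKM (-0.67, adjusted p = 2.08e-07, -0.54 relative). ATF6 was higher, at 20.5, 20.2 and 20.3 FPKM against 18.2, 18.2 and 16.8 FPKM (0.19, adjusted p = 0.0047, 0.32 relative). No sensor had overlapping groups, and all 4 kept their direction and their call under both scalings.

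**Figure D1:**
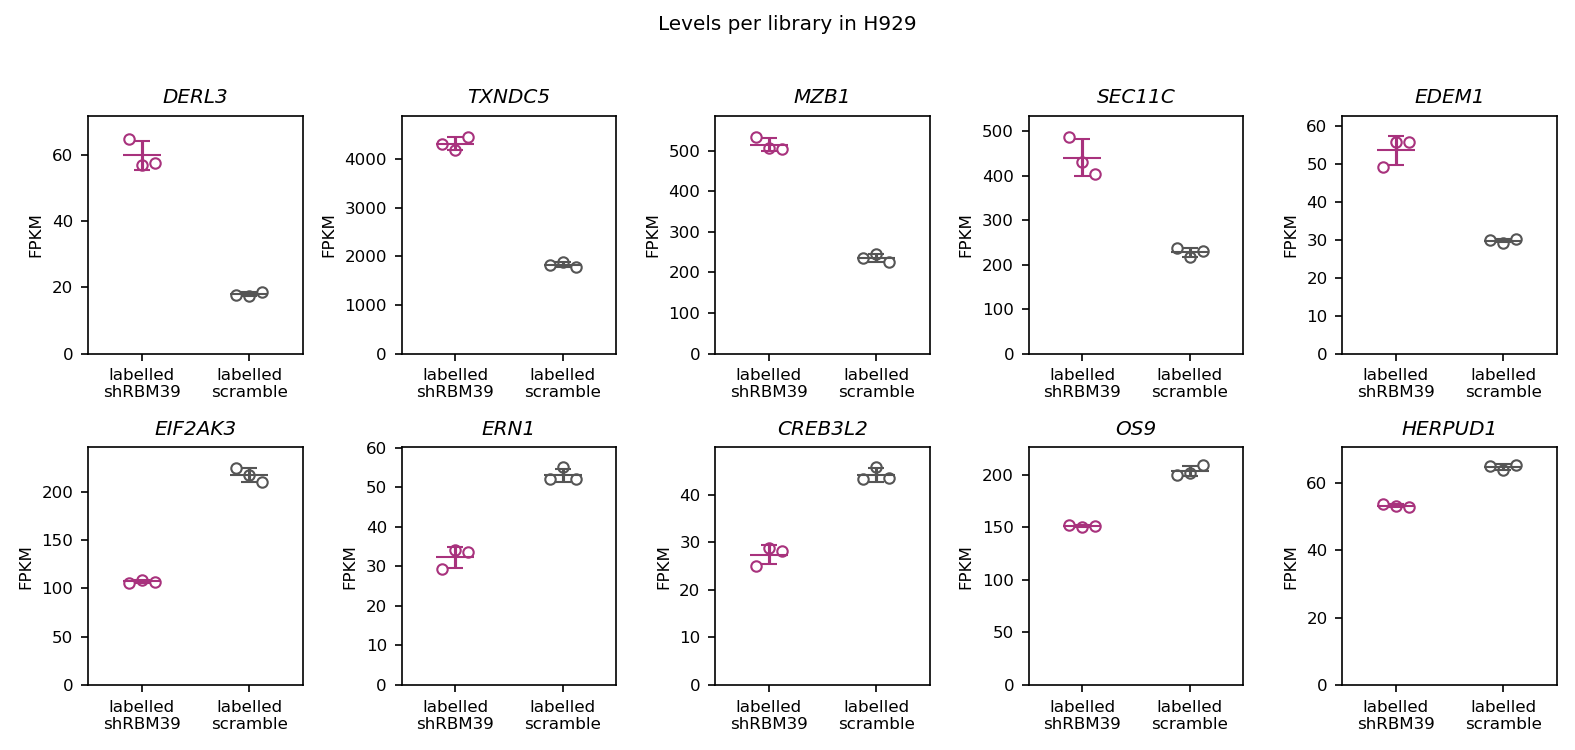
FPKM of 10 ER genes in each H929 library, libraries labelled shRBM39 left and labelled scramble right; circles are libraries, and the horizontal mark and bar are mean and SD (n = 3 each). The upper 5 genes lie higher with the shRBM39 label, up to DERL3 at 59.9 against 17.9 FPKM, and the lower 5 lie lower, down to EIF2AK3 at 107.2 against 217.4 FPKM.

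Leaving out each H929 library in turn kept 27 of the 29 higher calls and 7 of the 8 lower ones in every fit, and HSP90B1, PDIA6 and DERL2 were the exceptions. Groups did not overlap and lay higher for 28 genes and lower for 9, where 25.1% and 49.6% of all genes tested did so. Beside these values, CD3E, a T cell receptor subunit, was at 18.3, 17.4 and 15.5 FPKM against 43.0, 39.1 and 46.7 FPKM, and the myeloid marker CD68 averaged 13.8 against 25.5 FPKM. Of 7 T cell markers, CD3D, CD3G, CD2, CD5 and CD8A stayed under 1 FPKM in every H929 library, and the summed T cell level was 15.7 to 18.5 FPKM with the shRBM39 label against 39.3 to 47.1 FPKM with the scramble label. Myeloid markers summed to 13.4 to 14.7 FPKM against 25.1 to 26.9 FPKM, with 5 of 7 under 1 FPKM throughout. B cell markers summed to 56.1 to 58.7 FPKM against 49.7 to 51.6 FPKM, with PAX5 and CD22 under 1 FPKM. Epithelial markers stayed at 1.32 to 1.68 FPKM against 3.62 to 5.34 FPKM in sum. The part of these genes in the ER results was not tested.

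In MM1S the comparison of shRBM39 with scramble, with 2 libraries each, asked what lower RBM39 does to these genes. The test called 6 of the 46, 3 higher and 3 lower, and 40 were not called. With 2 libraries each, a gene not called was not shown to be unchanged. Of all 14152 genes tested, 10.3% were called, 3.97% higher and 6.35% lower. Of the 6 calls, ERN1 and EDEM1 reached a log2 difference of 1 in size, beside 6.27% of all genes. The median of the 46 was -0.13 against -0.001 for all genes.

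ERN1, the sensor kinase and ribonuclease, rose to 72.0 and 50.4 TPM with shRBM39 against 26.7 and 28.6 TPM with scramble (log2 1.10, SE 0.199, adjusted p = 0.035). HERPUD1 rose to 529.2 and 509.8 TPM against 265.8 and 337.7 TPM (0.79, SE 0.147, adjusted p = 0.0374). HSP90B1, the ER form of the HSP90 chaperone, rose to 1508 and 1351 TPM against 1016 and 959.6 TPM (0.53, SE 0.106, adjusted p = 0.0427). Both shRBM39 libraries lay above both scramble libraries in each of the 3. EDEM1 fell to 36.2 and 41.0 TPM against 85.0 and 96.7 TPM (-1.21, SE 0.14, adjusted p = 0.016). SSR1, a TRAP subunit, fell to 63.4 and 69.1 TPM against 117.3 and 126.5 TPM (-0.87, SE 0.125, adjusted p = 0.0224). SEC61B, a small subunit of the channel, fell to 342.7 and 311.1 TPM against 555.5 and 573.8 TPM (-0.79, SE 0.11, adjusted p = 0.0216). In these 3 both shRBM39 libraries lay below both scramble libraries.

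**Figure D2:**
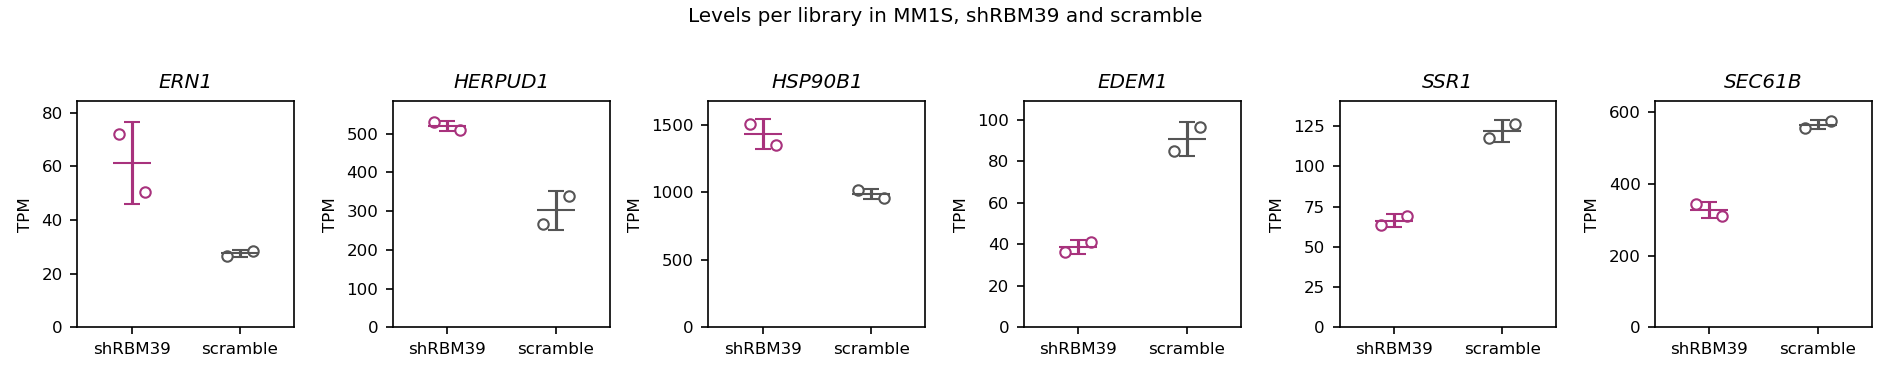
TPM of the 6 ER genes called in MM1S, shRBM39 left and scramble right; circles are libraries, and the horizontal mark and bar are mean and SD (n = 2 each). ERN1, HERPUD1 and HSP90B1 lie higher with shRBM39, and EDEM1, SSR1 and SEC61B lie lower.

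The other sensors did not pass the test. EIF2AK3 had 50.01 and 43.7 TPM with shRBM39 against 30.6 and 36.0 TPM with scramble (log2 0.48, adjusted p = 0.0996), with both shRBM39 libraries higher. ATF6 had 13.7 and 15.2 TPM against 19.5 and 19.5 TPM (-0.41, adjusted p = 0.123), with both lower. CREB3L2 had 33.6 and 26.3 TPM against 29.0 and 26.3 TPM (0.10, adjusted p = 0.711), and its groups overlapped. HSPA5 had 190.9 and 171.9 TPM against 228.8 and 284.0 TPM (-0.49, adjusted p = 0.0974). CRELD2 had 34.4 and 26.8 TPM against 23.0 and 26.2 TPM (0.30, adjusted p = 0.297). For HSPA5 the groups were apart and lower with shRBM39, and for CRELD2 they were apart and higher.

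By role, the calls were 1 of 12 chaperones, 0 of 9 isomerases, 2 of 10 degradation genes, 1 of 4 sensors and 2 of 11 translocon genes. The translocon genes had the lowest median, -0.56, followed by the chaperones at -0.15 and the isomerases at -0.13, while degradation genes were at 0.04 and the sensors at 0.29. Groups lay apart and higher for 11 of the 46 and apart and lower for 18, beside 30.5% and 31.9% of all genes tested. With median scaling 3 genes were higher and 5 lower (all genes 5.43% and 6.17%), and with quantile normalization 4 and 3 (5.29% and 6.13%). Without either scramble library 0 of the 46 and 0 of all genes were called, with 2444 and 2565 of all genes at an unadjusted p below 0.05. Without shRBM39 replicate 1 the median log2 difference of the 46 was -0.25 (all genes -0.044), and without replicate 2 it was 0.03 (all genes 0.041). CD3E was lower here too, at 0.77 and 1.06 TPM against 4.37 and 5.64 TPM (adjusted p = 0.0229). The 7 T cell markers summed to 2.85 to 3.07 TPM with shRBM39 and 5.19 to 5.80 TPM with scramble, with CD3D and CD3G at 0 in every library, and their part in the ER results was not tested.

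With indisulam, 9 of the 46 genes were higher and 15 lower than in DMSO, and 22 were not called. Of all 13445 genes tested, 29.9% were called, 8.47% higher and 21.5% lower, and the medians were -0.09 for these genes and -0.051 for all genes. The split depended on scaling and on replicate 3. Median scaling gave 10 higher and 4 lower (all genes 19.3% and 22%), quantile normalization 16 and 6 (22.5% and 20.7%), and leaving out replicate 3 gave 16 and 20 (36.8% and 29%). Leaving out a DMSO library gave 3 higher and 5 to 7 lower, without indisulam replicate 1 the counts were 5 and 10, and without replicate 2 they were 4 and 9. Calls among all genes fell too, from 1139 higher and 2885 lower to 404 to 422 and 1597 to 1768 without a DMSO library. They were 545 and 2291 without indisulam replicate 1, and 495 and 2386 without replicate 2. ERN1, HERPUD1 and DNAJB9 stayed higher and CALR, MZB1, FKBP11, DERL3 and SEC61G stayed lower in each of the 6 fits that left out a library. Without replicate 3 the median of all genes was 0.083. With all libraries kept, HERPUD1, SEL1L, EDEM3, ERN1 and EIF2AK3 were called with a log2 difference of at least 1, beside 11.2% of all genes in either direction.

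Of the 4 sensors 2 rose and 0 fell, and ERN1 had the largest increase of the 46. It was at 292.5, 197.5 and 93.7 TPM with indisulam against 33.3, 36.7 and 38.8 TPM in DMSO (log2 2.25, SE 0.369, adjusted p = 0.00458). ERN1 was called under both scalings, and its difference was 2.70 without replicate 3. EIF2AK3 rose to 76.8, 64.6 and 33.4 TPM against 26.3, 20.6 and 26.8 TPM (1.14, SE 0.298, adjusted p = 0.0267). CREB3L2 had 45.0, 37.8 and 18.1 TPM against 19.8, 18.5 and 20.1 TPM (0.66, adjusted p = 0.148), and ATF6 had 15.7, 16.6 and 9.41 TPM against 12.1, 10.5 and 12.1 TPM (0.22, adjusted p = 0.502). In all 4, indisulam replicate 3 was the lowest of the 3 indisulam libraries, and for CREB3L2 and ATF6 it lay below every DMSO library. CREB3L2 was also called higher with all libraries under median scaling (adjusted p = 0.0228) and quantile normalization (0.0214). Without replicate 3 both were called higher, CREB3L2 at 1.05 (adjusted p = 6.58e-05) and ATF6 at 0.45 (adjusted p = 0.00392).

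Degradation genes were higher in 3 of 10 and lower in 1 (5 and 0 under quantile normalization). HERPUD1 rose to 1156, 1011 and 829.5 TPM with indisulam against 475.2, 491.2 and 515.3 TPM in DMSO (log2 1.00, SE 0.125, adjusted p = 0.00155), with every indisulam library above every DMSO library. SEL1L rose to 151.9, 112.7 and 47.2 TPM against 39.9, 37.2 and 40.9 TPM (1.23, SE 0.383, adjusted p = 0.0493). EDEM3, another EDEM mannosidase, rose to 140.9, 133.2 and 55.0 TPM against 46.9, 45.8 and 48.2 TPM (1.09, SE 0.335, adjusted p = 0.0465). For SEL1L and EDEM3 replicate 3 was near the DMSO range. Both, like EIF2AK3, were called in only 1 of the 6 fits that left out a library, the one without replicate 3. DERL3 fell to 136.1, 151.2 and 145.6 TPM against 196.0, 212.8 and 205.1 TPM (-0.50, SE 0.0805, adjusted p = 0.00397), and it was not called under median scaling (adjusted p = 0.0729) or quantile normalization (0.219).

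**Figure D3:**
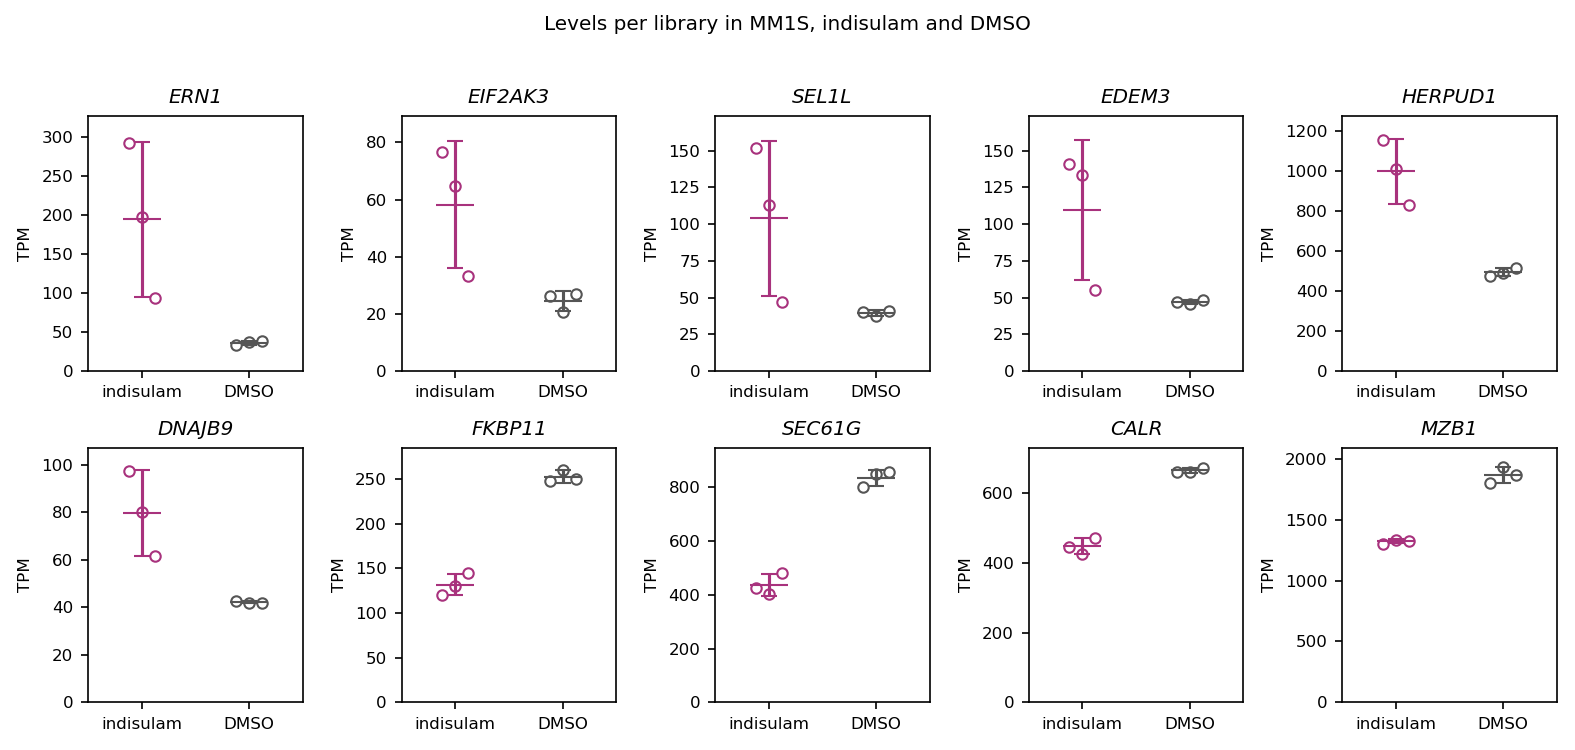
TPM of 10 ER genes in each MM1S library, indisulam left and DMSO right; circles are libraries in the order of their replicate number, and the horizontal mark and bar are mean and SD (n = 3 each). ERN1, EIF2AK3, SEL1L, EDEM3, HERPUD1 and DNAJB9 lie higher with indisulam and have their lowest indisulam value in replicate 3, and FKBP11, SEC61G, CALR and MZB1 lie lower.

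Among isomerases 7 of 9 fell and 1 rose, with a median of -0.31, and among chaperones 4 of 12 fell, 1 rose and 7 were not called. Quantile normalization left 2 isomerases lower and 0 higher, with PDIA3 at 0.08 and PDIA6 at 0.04 there, and turned the chaperones to 3 higher and 2 lower. Median scaling left 2 isomerases and 0 chaperones lower. FKBP11 fell to 120.7, 130.1 and 144.9 TPM with indisulam against 247.2, 260.4 and 250.5 TPM in DMSO (log2 -0.94, SE 0.0901, adjusted p = 0.000582). FKBP2, another ER prolyl isomerase, fell to 124.6, 131.1 and 170.9 TPM against 198.3, 226.1 and 195.2 TPM (-0.55, SE 0.135, adjusted p = 0.0221, and 0.157 under median scaling). PDIA4, a disulfide isomerase, fell to 178.2, 170.8 and 147.1 TPM against 233.0, 218.9 and 225.0 TPM (-0.45, SE 0.0937, adjusted p = 0.0116, and 0.273 under quantile normalization). No indisulam library of these 3 genes reached the DMSO range. TXNDC5 was the exception, at 5173, 4767 and 3123 TPM against 2503, 2354 and 2501 TPM (0.79, SE 0.182, adjusted p = 0.0168, and 0.0587 under quantile normalization).

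Of the chaperones, CALR fell to 445.3, 424.2 and 471.5 TPM with indisulam against 660.1, 659.7 and 671.5 TPM in DMSO (log2 -0.57, SE 0.0739, adjusted p = 0.00167). MANF fell to 128.7, 112.0 and 146.1 TPM against 178.5, 182.7 and 186.9 TPM (-0.51, SE 0.108, adjusted p = 0.013). MZB1 fell to 1303, 1335 and 1326 TPM against 1802, 1930 and 1866 TPM (-0.50, SE 0.0692, adjusted p = 0.00225). In these 3 genes all indisulam libraries were below all DMSO libraries, yet none was called under median scaling (adjusted p = 0.0737, 0.133 and 0.107). DNAJB9, a co-chaperone induced through XBP1, rose to 97.6, 80.1 and 61.6 TPM against 42.6, 41.9 and 41.7 TPM (0.88, SE 0.165, adjusted p = 0.0077). The main chaperone HSPA5 had 277.3, 236.6 and 210.8 TPM against 240.4, 234.4 and 240.6 TPM (0.01, adjusted p = 0.956), and with quantile normalization it was called higher (0.35, adjusted p = 0.0279). CRELD2 had 69.4, 63.5 and 48.4 TPM against 58.8, 62.9 and 64.6 TPM (-0.05, adjusted p = 0.807). Both overlapped DMSO.

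Translocon and signal peptidase genes went both ways, with 2 of 11 higher and 3 lower (2 and 1 under median scaling, 5 and 2 under quantile normalization). SEC61G, a small subunit of the channel, fell to 423.8, 401.3 and 479.8 TPM with indisulam against 800.9, 847.1 and 856.1 TPM in DMSO (log2 -0.94, SE 0.0895, adjusted p = 0.000566). SEC61B fell to 504.5, 461.5 and 595.6 TPM against 725.5, 759.8 and 758.9 TPM (-0.53, SE 0.105, adjusted p = 0.00958). SPCS2, a signal peptidase subunit, fell to 296.3, 345.3 and 301.4 TPM against 363.2, 398.4 and 434.1 TPM (-0.34, SE 0.1, adjusted p = 0.04). In contrast to these, the TRAP subunit SSR3 rose to 338.4, 312.9 and 250.9 TPM against 211.0, 208.9 and 209.2 TPM (0.51, SE 0.117, adjusted p = 0.0172). SSR4, of the same complex, rose to 999.4, 900.9 and 1225 TPM against 740.6, 763.1 and 741.8 TPM (0.46, SE 0.118, adjusted p = 0.0239). All 5 had separate groups. Under median scaling SEC61G (adjusted p = 0.0202) and SSR3 (0.0158) were still called and SEC61B, SPCS2 and SSR4 were not. Over the 46 genes, groups lay apart and higher for 11 and apart and lower for 19, beside 14.9% and 32.3% of all genes tested. CD3E was again lower, at 0.89, 1.36 and 1.29 TPM against 4.05, 3.10 and 2.90 TPM (adjusted p = 0.00704). The T cell markers summed to 1.39 to 1.73 TPM with indisulam and 3.70 to 4.83 TPM in DMSO, with CD3D and CD3G at 0, and their part in the ER results was not tested.

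**Figure D4:**
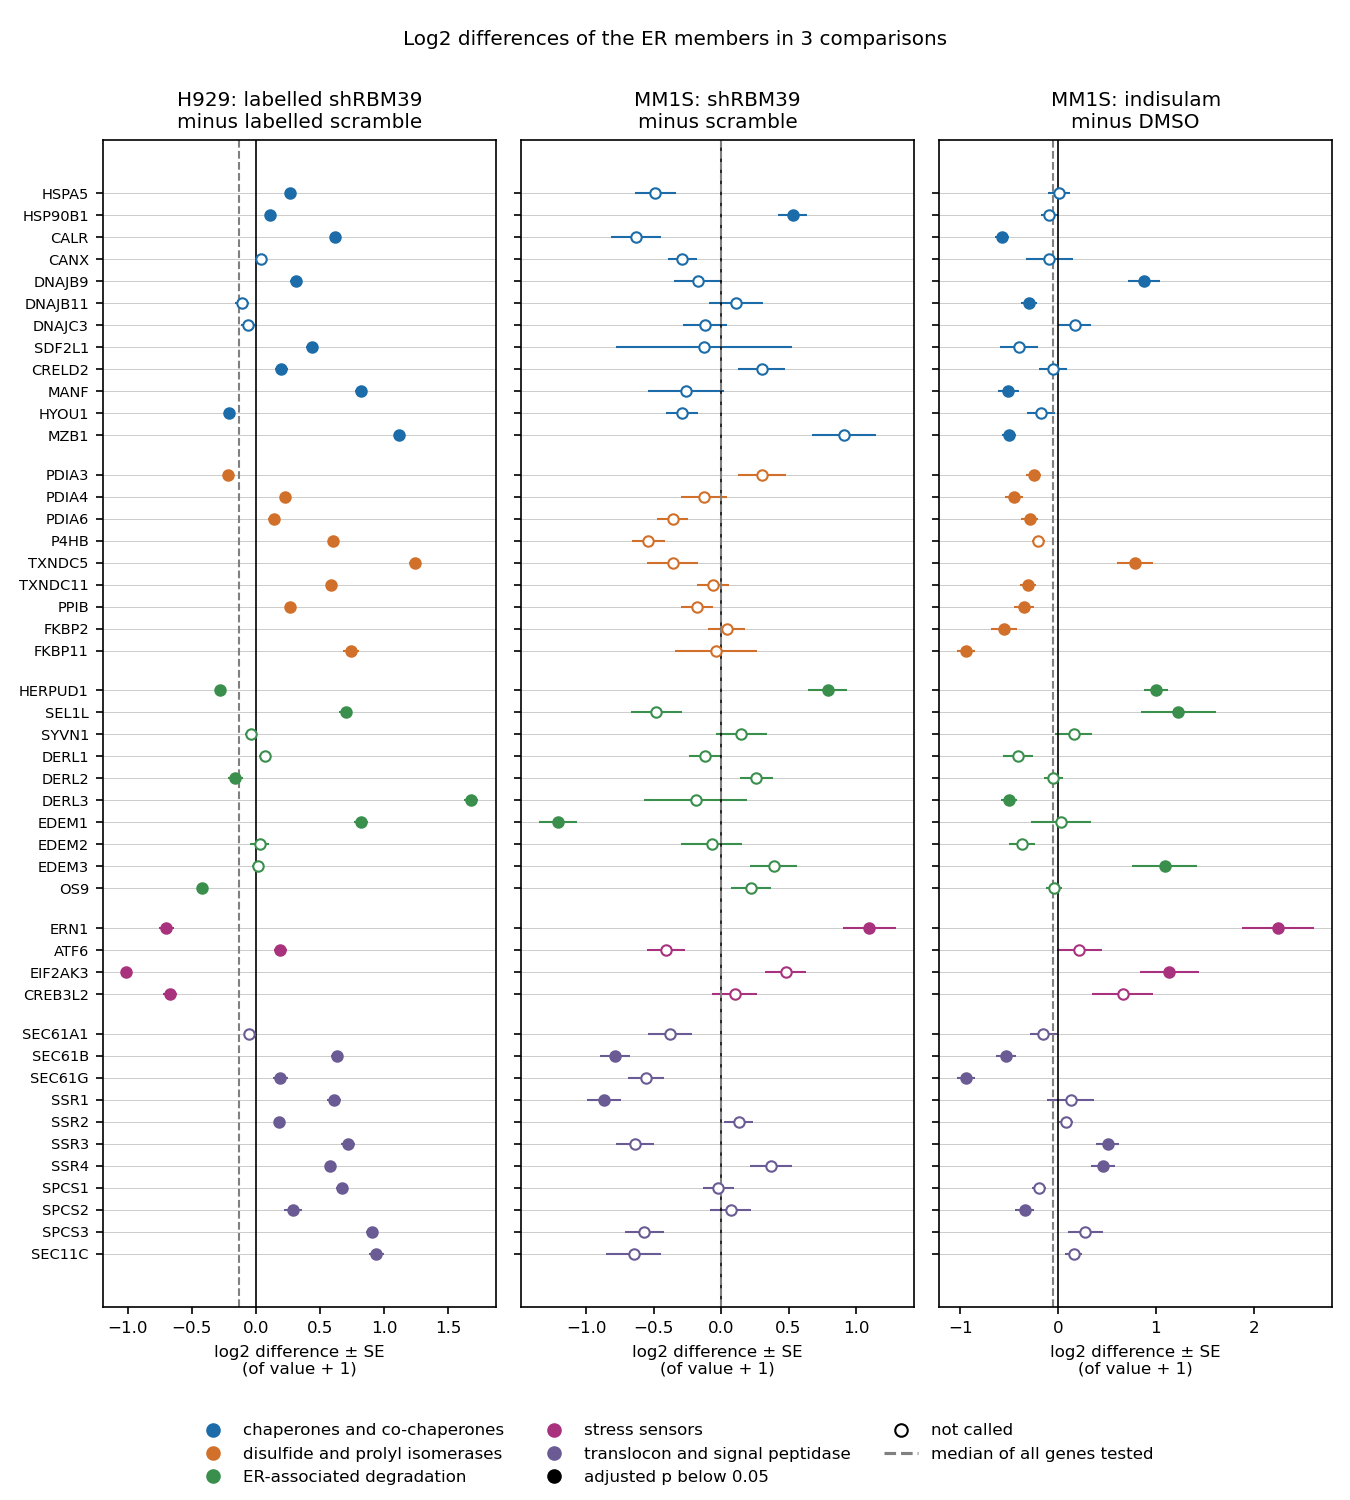
Log2 difference (of value + 1) ± SE of each of the 46 ER genes in the 3 expression comparisons, ordered by role; filled points passed an adjusted p below 0.05, open ones did not, and the dashed line is the median of all genes tested. ERN1 is at -0.70, 1.10 and 2.25 from left to right, and most translocon genes lie right of 0 in H929 and left of 0 with shRBM39 in MM1S.

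Across the comparisons, HERPUD1, ERN1 and SEC61B were called in all 3. ERN1 and HERPUD1 were higher in both MM1S comparisons, which makes 66.7% of the 3 genes called higher with shRBM39 and 22.2% of the 9 called higher with indisulam. SEC61B was lower in both, 33.3% of the 3 and 6.67% of the 15 called lower. With a replicate block none of the 3 was called in the knockdown, where 0 of the 46 were higher and the 1 lower was a degradation gene. Each knockdown fit that left out 1 library had only 1 library in a group. Those fits kept the directions of all 3 genes, but not every call. ERN1 was then at 0.84 to 1.35, HERPUD1 at 0.62 to 0.96 and SEC61B at -0.86 to -0.72. No gene was called in opposite directions in the 2 MM1S comparisons. These comparisons use different controls, 2 scramble and 3 DMSO libraries. Among all 12613 genes tested in both, 141 (1.12%) were higher in both and 475 (3.77%) lower in both. These shares are of all genes tested, while the members' shares are of called members. In their own tests, 562 of all genes were called higher and 899 lower with shRBM39, and 1139 and 2885 with indisulam.

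In H929, whose RBM39 values go against the labels, the direction of each call rests on those labels, and exchanging them would turn the opposite calls below into shared ones and the shared ones into opposite ones. EDEM1, SEC61B and SSR1, the 3 genes lower with shRBM39 in MM1S, were all higher with that label in H929, and HERPUD1 and ERN1, 2 of the 3 higher in MM1S, were lower in H929. HSP90B1 was higher in both, and 0 genes were lower in both. Of the 9509 genes tested in both, 4.05% were higher in H929 and lower in the MM1S knockdown, 2.73% the reverse, 0.315% higher in both and 1.82% lower in both. Between H929 and indisulam, 12 genes were higher in H929 and lower with indisulam (CALR, MANF, MZB1, PDIA4, PDIA6, TXNDC11, PPIB, FKBP11, DERL3, SEC61B, SEC61G and SPCS2), 41.4% of the 29 and 80% of the 15. HERPUD1, ERN1 and EIF2AK3 were lower in H929 and higher with indisulam, 37.5% of the 8 and 33.3% of the 9. In the same direction were DNAJB9, TXNDC5, SEL1L, SSR3 and SSR4, higher in both, and PDIA3, lower in both. Over all 9358 genes tested in both, 855 (9.14%) were higher in H929 and lower with indisulam, and 341 (3.64%) the reverse. Higher in both were 0.898%, and lower in both 7.62%. These shares are of all genes tested, while the members' shares are of called members. In their own tests, 2498 of all genes were called higher and 4979 lower in H929, and 1139 and 2885 with indisulam. The differences between lines were not tested.

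RIP asks which transcripts come down with RBM39. There was 1 RBM39 and 1 IgG library, so no test was possible and a ratio has no replicate check. CRELD2 had 214 FPKM in the RBM39 library and 1.08 FPKM in the IgG library, a log2 ratio of 6.69 (of FPKM + 1), the highest of the 10966 genes that reached 1 FPKM in at least 1 of the libraries. This was known when these genes were chosen. The denominator is small, and a pseudocount of 0.1 in place of 1 gave 7.50. In the expression tables CRELD2 was no rare transcript, at 58.8 to 64.6 TPM in DMSO libraries, and it was not called in either MM1S comparison.

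PDIA6, a disulfide isomerase, came second at 2105 FPKM with RBM39 against 285.1 FPKM with IgG (log2 2.88, rank 140 of all genes). HSPA5 had 170.1 FPKM against 42.6 FPKM (1.97) and HYOU1 464 FPKM against 190.4 FPKM (1.28). These 4 are the highest of the 46, and all 4 hold an ERSE or ERSE-II in their promoter window. The other 5 genes with an element were spread down the order, CANX at 0.83, HERPUD1 at -0.03, SDF2L1 at -0.56, CALR at -0.72 and HSP90B1 at -1.36. SSR2 had 628 FPKM against 287.5 FPKM (1.12). DNAJC3, a co-chaperone of BiP, had 92.9 FPKM against 44.3 FPKM (1.05). EDEM3, at 562 against 286.2 FPKM (0.97), and DERL1, a derlin of the retrotranslocation channel, at 46.4 against 24.8 FPKM (0.88), completed the highest 8. After CRELD2 the ratio dropped quickly, and the last 4 of these 8 lay close to 1 on the log2 scale.

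At the low end stood FKBP2 at 14.7 FPKM with RBM39 against 134.4 FPKM with IgG (log2 -3.11). SPCS1, of signal peptidase, had 100.2 FPKM against 722.6 FPKM (-2.84). SPCS3 had 34.6 FPKM against 220.7 FPKM (-2.64). MANF had 35.6 FPKM against 186.7 FPKM (-2.36) and SEC61B 59.8 FPKM against 287.5 FPKM (-2.25). Of these 5 genes, 3 belong to the entry machinery. Role counts are given for the columns as deposited, where 23.9% of all genes were at 1/2 or less and 22.7% at 2 or more. The translocon and signal peptidase genes had a median log2 ratio of -1.68, with 6 of 11 at 1/2 or less and 1 at 2 or more. Chaperones had a median of -0.02 with 4 of 12 at 2 or more and 3 at 1/2 or less, isomerases 0.39, degradation genes 0.16 and sensors -0.39. The 3 genes called in all expression comparisons were at -0.03 (HERPUD1), -0.42 (ERN1) and -2.25 (SEC61B).

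**Figure D5:**
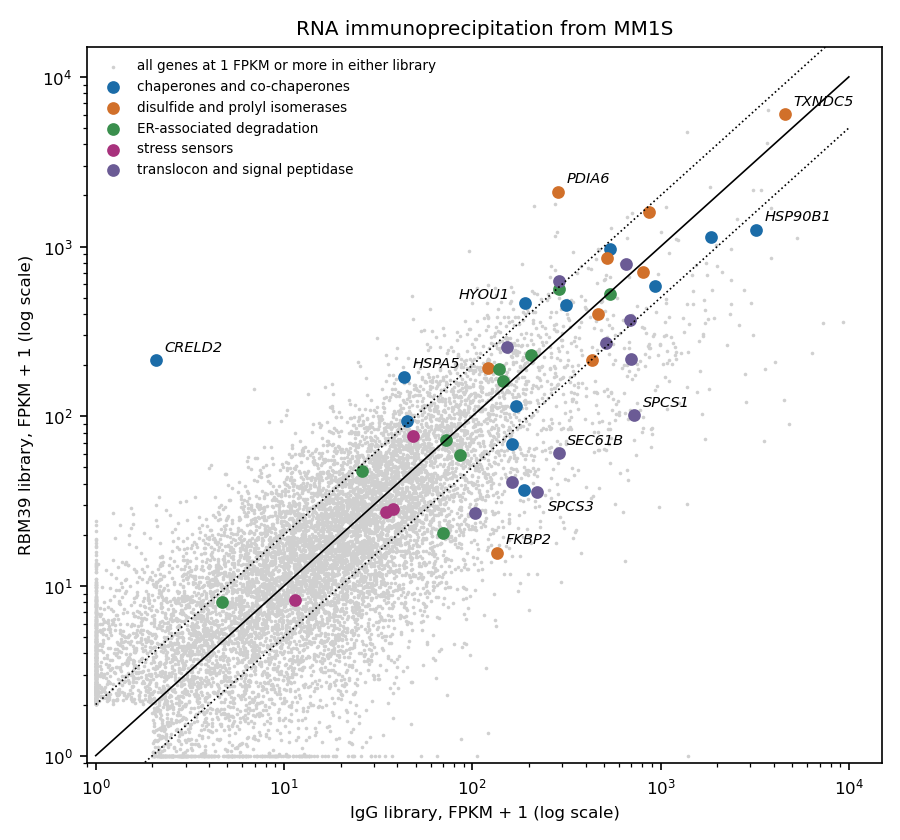
FPKM + 1 in the RBM39 library against the IgG library for all 10966 genes (grey) and the 46 ER genes (coloured by role), both axes on a log scale; the solid line marks equal values and the dotted lines 2-fold differences. CRELD2 lies far above the line at 214 against 1.08 FPKM, and SPCS1, SPCS3, SEC61B and FKBP2 lie below it.

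In all, 6 of the 46 were at a ratio of 2 or more and 12 at 1/2 or less, beside 22.7% and 23.9% of all genes, and the medians were -0.11 and 0.02. The columns of the table had different totals, 481945.0 and 653238.5 FPKM. Scaled to the same total, 15 of the 46 were at 2 or more and 9 at 1/2 or less, beside 33% and 17.3% of all genes.

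Genes with an ER stress element did not form a block in expression. Of the 9 with an ERSE or ERSE-II, 6 were higher and 2 lower in H929 (the other 32 tested genes with a window gave 21 and 5), with HYOU1 and HERPUD1 lower. In MM1S with shRBM39, 2 of the 9 were higher, HSP90B1 and HERPUD1, and 0 lower, against 1 and 3 of the other 33. With indisulam 1 was higher, HERPUD1, and 2 lower, CALR and PDIA6, against 8 and 11 of the other 33. Their log2 differences with indisulam spanned -0.57 to 1.00 and had a median of -0.09.

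Other genes of the same pathways, from lists set beside the 46, gave a mixed picture. No list was tested as a set. For the counts here and in the next paragraph, all genes tested were 24.1% higher and 48.1% lower in H929. They were 3.97% and 6.35% with shRBM39 in MM1S, and 8.47% and 21.5% with indisulam. Under median scaling these shares were 38% and 32%, 5.43% and 6.17%, and 19.3% and 22%. Under quantile normalization they were 34.4% and 34.9%, 5.29% and 6.13%, and 22.5% and 20.7%. Of 23 further genes of the unfolded protein response, 3 were higher and 4 lower with indisulam (4 and 4 under median scaling, 7 and 4 under quantile normalization). DDIT3, the pro-apoptotic factor CHOP, rose to 100.4, 64.3 and 78.4 TPM against 32.0, 42.5 and 42.3 TPM in DMSO (log2 1.03, adjusted p = 0.00721), with the groups apart. XBP1 rose to 653.2, 677.9 and 617.2 TPM against 536.9, 527.7 and 537.8 TPM (0.28, adjusted p = 0.0252, and 0.212 under median scaling). PDIA5, a disulfide isomerase, fell to 14.3, 14.6 and 11.9 TPM against 28.4, 30.2 and 31.9 TPM (-1.10, adjusted p = 0.00144). In H929, 6 of 21 tested were higher and 11 lower with the shRBM39 label (9 and 6 under median scaling, 8 and 8 under quantile normalization), among them DDIT3 at 11.5, 9.78 and 11.7 FPKM against 25.6, 25.9 and 24.6 FPKM (-1.14, adjusted p = 6.91e-09, and -0.97 under median scaling). XBP1 there was 2284, 2148 and 2181 FPKM against 1671, 1717 and 1619 FPKM (0.40, adjusted p = 1.46e-06, 0.54 relative), but -0.03 under quantile normalization. With shRBM39 in MM1S, 1 was higher, the retrieval receptor KDELR1 (0.91, adjusted p = 0.0471), and 1 lower, the glycoprotein sensor UGGT2 (-0.71, adjusted p = 0.0421).

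Of 16 further degradation genes, 0 were higher and 4 lower with indisulam, but 1 and 1 under median scaling and 2 and 1 under quantile normalization. Called lower with indisulam under each of these scalings was VCP, the segregase that extracts substrates, at 95.4, 107.1 and 89.7 TPM against 182.9, 167.2 and 181.7 TPM (log2 -0.86, adjusted p = 0.000957). RNF5, a membrane ubiquitin ligase, was the 1 of the 16 called with shRBM39 (-0.74, adjusted p = 0.0297), and it was also lower with indisulam (-0.47, adjusted p = 0.0101), where the call was lost under median scaling (adjusted p = 0.101) and quantile normalization (0.164) and in 3 of the 6 fits that left out a library. In H929, 8 of the 16 were higher and 5 lower with the shRBM39 label (11 and 5 under median scaling). Of 13 targeting genes, SRP14, a subunit of the signal recognition particle, rose to 302.5 and 306.5 TPM with shRBM39 against 100.8 and 113.6 TPM with scramble in MM1S (a ratio of means of 2.84, adjusted p = 0.0116). SRP72, of the same particle, fell to 39.0 and 44.0 TPM against 93.2 and 103.1 TPM (-1.22, SE 0.135, adjusted p = 0.0156). The receptor subunit SRPRB was at 75.4, 75.4 and 74.7 FPKM against 27.9, 28.8 and 27.9 FPKM in H929 (1.38, 1.52 relative), the largest of 5 higher and 4 lower there (8 and 2 under median scaling). With indisulam 0 of the 13 were higher and 3 lower, which turned to 5 higher and 1 lower under both scalings. The oligosaccharyltransferase list, 12 genes with 11 tested, had 1 higher and 4 lower with indisulam (1 and 1 under median scaling, 3 and 0 under quantile normalization), 0 called with shRBM39 in MM1S (3 at an unadjusted p below 0.05, and 0 under either scaling in the same tool), and 5 higher and 5 lower in H929 (6 and 3 under median scaling). Its catalytic subunit STT3A fell with indisulam (-0.61, adjusted p = 0.0192, and 0.0798 under quantile normalization). Of 18 ER exit genes, 1 was higher and 1 lower with indisulam (5 and 0 under median scaling, 8 and 0 under quantile normalization), 0 were called with shRBM39 in MM1S (5 at an unadjusted p below 0.05), and 7 were higher and 6 lower in H929 (11 and 4 under median scaling), with the cargo receptor subunit MCFD2 at 19.6, 19.9 and 19.6 FPKM against 8.45, 8.15 and 7.70 FPKM (1.19, 1.32 relative).

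Other marker lists in MM1S were low. With shRBM39 and scramble, B cell markers summed to 11.6 to 15.6 against 13.9 to 17.5 TPM, myeloid markers to 7.60 to 11.8 against 17.3 to 22.2 TPM, and epithelial markers to 3.79 to 5.81 against 13.9 to 22.2 TPM. ELF3, an epithelial transcription factor, was the 1 of these called (log2 -2.08, adjusted p = 0.0499). With indisulam and DMSO the sums were 30.2 to 36.1 against 33.2 to 37.4 TPM for B cell markers, 7.22 to 8.34 against 9.51 to 10.6 TPM for myeloid markers, and 0.74 to 0.93 against 0.95 to 1.63 TPM for epithelial markers. The part of these markers in the ER results was not tested. Plasma cell markers were far higher, with sums of 6602 to 7192 TPM with shRBM39 against 4151 to 6208 TPM with scramble, and of 4771 to 6073 TPM with indisulam against 5771 to 6257 TPM in DMSO. In H929 the sums were 7613 to 7711 FPKM with the shRBM39 label against 4919 to 5054 FPKM with the scramble label, and SDC1 differed most, at 496.9, 496.9 and 506.8 FPKM against 123.8, 130.5 and 119.7 FPKM (log2 2.00, 2.13 relative, adjusted p = 1e-12). Of the 9 plasma cell markers tested there, 6 were higher and 3 lower, beside 24.1% and 48.1% of all genes. The lower ones were PRDM1 (-0.38, adjusted p = 6.54e-06), CD38 (-0.32, adjusted p = 0.000617) and SLAMF7 (-0.23, adjusted p = 0.000491, and 0.233 under median scaling).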

How the data were processed

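The values analysed are those of 16 RNA sequencing and 2 RIP libraries, starting from the deposited tables. Per the labels' protocols, total RNA was extracted with TRIzol and a SMARTER mRNA kit was used for the libraries. How reads were aligned and counted, and with which annotation, is not given in the sources used here. GRCm38 and mm10, named in the submitters' processing notes, are mouse builds, while cells and symbols are human, so all coordinates printed come from RefSeq. The authors made FPKM (fragments per kilobase of transcript and per unit of library size) for H929 and for RIP. The 2 MM1S files say FPKM in their names, yet the authors deposited TPM there, as shown by column sums of 999999.3 to 1000000.7. Unnamed rows, 834 for the knockdown and 473 for indisulam (0.436% to 0.459% and 0.174% to 0.237% of TPM), were left out of every test. The label "In" was taken to mean indisulam, because the design names that drug, and MM1S numbers were taken as replicates, although the labels would also allow the 2 shRBM39 libraries to hold different hairpins.

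The fits used limma (version 3.58.1, R 4.3.3), with trend and robust options, for each whole table. Values were transformed as log2(value + 1), which understates changes of low genes. The filter asked for 1 unit in a number of libraries equal to the smaller group, and calls needed a Benjamini-Hochberg adjusted p (two-sided, over all genes tested) below 0.05. Every adjusted p in the text comes from limma. Relative differences have the median of all genes subtracted. RIP values are given as log2 ratios of FPKM + 1, RBM39 over IgG, with no test. For H929, relative depth was taken from the spacing between low FPKM values; counts were not used, so precision rests on the number of libraries and no counting interval is given. Replicate numbers were not used to pair libraries, because same-numbered libraries did not deviate together throughout any comparison.

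The members and lists were chosen with earlier results of these data known. Values in every library are given, per comparison, for up to 3 genes per role and direction with the largest called difference, for the 4 sensors, HSPA5 and CRELD2 always, and for the 8 highest and 5 lowest RIP ratios. Other lists are given by counts with up to 3 examples. Alternatives covered the pseudocount (0.1), the filter (none, or 5 units), scaling (median, quantile), limma's trend and robust options, a block for replicate number, a minimum log2 change of 1, and the omission of single libraries. The pipeline was tested on simulated data in which few genes were changed. Of simulated log2 changes of 1 in size, it called 98.5% for H929, 0% for the MM1S knockdown and 50.7% for indisulam. Of changes of 2 it called 100%, 28.8% and 86.4%. The real fits called 72.2%, 10.3% and 29.9% of all genes, and an adjusted p depends on that share. The simulated rates may therefore differ from those in these data, and a gene not called was not shown to be unchanged. Python 3.11.15, pandas 2.3.3, NumPy 2.4.6 and matplotlib 3.10.9 were also used.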

Additional observations from a re-analysis of the deposited data

Results flagged for a closer look

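Among the genes named in the report, 16 had every library labelled shRBM39 on one side of every scramble library in H929 and on the opposite side in MM1S. The difference between the lines was not tested, and RBM39 itself was higher with the shRBM39 label in H929 and lower in MM1S. Higher with the label in H929 and lower in MM1S were 11 genes, given here as log2 differences in H929 and in MM1S. The chaperones were HSPA5 (0.27 and -0.49) and CALR (0.62 and -0.63). The isomerase P4HB was at 0.60 and -0.54. Of the degradation genes, SEL1L was at 0.70 and -0.48 and EDEM1 at 0.82 and -1.21. The sensor ATF6 was at 0.19 and -0.41. In the entry machinery, SEC61B was at 0.63 and -0.79, SSR1 at 0.61 and -0.87, SSR3 at 0.72 and -0.64, SPCS3 at 0.91 and -0.57, and SEC11C at 0.94 and -0.65. Lower in H929 and higher in MM1S were HERPUD1 (-0.28 and 0.79), DERL2 (-0.16 and 0.26), OS9 (-0.42 and 0.22), ERN1 (-0.70 and 1.10) and EIF2AK3 (-1.01 and 0.48). Of these 16, EDEM1, SEC61B, SSR1, HERPUD1 and ERN1 were called in both lines. PDIA6 and PPIB, outside the naming rule, showed the same pattern, which makes 18 of the 46, or 39.1%. Of all 9509 genes tested in both lines, 33.6% were on opposite sides in this way, so the members' share was near that of all genes only with both directions pooled. By direction, 13 of the 46 were higher in H929 and lower in MM1S, beside 14.2% of all genes. The reverse held for 5 of the 46, beside 19.4% of all genes. The split by direction was not tested. Exchanging the H929 labels would put these 18 on the same side in both lines.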

How the results depend on the processing

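In H929 the counts of 29 higher and 8 lower stayed within 1.5 times under every alternative except 2. With median scaling 5 were lower, and a log2 change of at least 1 left 3 higher and 1 lower. DERL2 there changed sign to 0.02 with quantile normalization and 0.00032 with median scaling. The MM1S knockdown counts of 3 higher and 3 lower were the least stable. No filter gave 0 and 0, limma without trend and robust gave 0 higher and 2 lower, a filter at 5 gave 6 lower, median scaling gave 5 lower, and a log2 change of at least 1 left 1 and 1. Leaving out 1 library put the median log2 difference of the 46 at -0.26 to 0.03 (all genes -0.044 to 0.041). In those fits the lone library left is assumed to vary like the other groups. CREB3L2, leaving out 1 library at a time, ranged between -0.07 (without shRBM39 replicate 1) and 0.27 (without shRBM39 replicate 2). With indisulam the counts of 9 higher and 15 lower became 5 and 8 with no filter, 16 and 6 with quantile normalization, 4 lower with median scaling, 9 lower without trend and robust, and 5 and 0 at a log2 change of at least 1. Leaving out 1 library gave 3 to 16 higher and 5 to 20 lower, beside 404 to 4945 higher and 1597 to 3894 lower among all genes. HSPA5 there changed sign to -0.09 without indisulam replicate 1 and -0.0026 without DMSO replicate 2 (0.35 and called higher with quantile normalization), and CRELD2 to 0.17 with quantile normalization and 0.10 without indisulam replicate 3, with -0.16 without replicate 1 at the other end. The cause of these shifts was not tested. The RIP count of 18 genes at 2-fold or more in either direction became 24 with columns scaled to the same total. Scaling moved the share of higher calls among all called genes from 33.4% to 54.3% (median) and 49.6% (quantile) in H929, and from 28.3% to 46.7% and 52.1% with indisulam, where it was 55.9% without indisulam replicate 3.

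Same-numbered libraries deviated with correlations of 0.129, -0.000 and 0.025 in H929, of -0.142 for the knockdown in MM1S, and of 0.137, -0.148 and -0.025 for indisulam, so the numbers give no pairing. With a replicate block, the counts were 29 higher and 8 lower in H929, 0 and 1 for the MM1S knockdown (255 of all genes called, against 1461), and 9 and 9 for indisulam. A crossed pairing of the MM1S knockdown, added after the data were seen, gave 2 higher and 3 lower, with 772 of all genes called. RIP without a filter, also added then, gave 18. Over 16 and 2 libraries with unknown depth outside H929, what the number of reads limits cannot be told.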
